A study of Homo sapiens with 16 samples.

Results

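The RNA bound to poly(A) binding protein (PABP) was compared with total RNA in U343 glioblastoma cells that had received a control miRNA mimic. The question was which classes of RNA are enriched or depleted in PABP-bound RNA when miR-137 has not been added. Libraries were chosen by their labels alone, as the 2 RIPSeq and the 2 RNASeq libraries of the U343 control transfection, 4 of the 16 libraries in the series. The other libraries came from U343 cells with a miR-137 mimic and from U251 glioblastoma cells with either mimic. U343 is an established human glioma line, so every value describes 1 line in culture. All 4 libraries carried the control mimic at 25 nM and no miR-137 mimic. For RNASeq, total RNA was extracted with TRIzol 48 hours after transfection. For RIPSeq, a lysate in polysomal buffer was incubated with beads that carried a mix of antibodies to PABP I and iPABP, and the RNA on the beads was recovered. Both kinds of sample were depleted of rRNA before library construction with the TotalScript and Nextera kits. No precipitation with an unrelated antibody was analysed here, and the lysate was not sequenced on its own, so binding to PABP, presence in the lysate and the extraction method cannot be told apart in any of these ratios.

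PABP coats the poly(A) tail of most messenger RNAs in the cytoplasm and contacts the initiation factor eIF4G at the cap. Messenger RNAs of the replication-dependent histones are the known exception, since they end in a stem-loop and carry no poly(A) tail. Guide RNAs of the nucleolus and Cajal bodies and the RNA subunits of enzymes such as RNase P also lack a stable tail. Long noncoding RNAs such as MALAT1 are held in the nucleus, away from most of the cytoplasmic PABP. Replacement histones, made outside S phase, have ordinary polyadenylated messages.

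The replication-dependent histone genes had the lowest median of the classes examined, and promoters are shown because all tested members moved in the same direction. Of the 57 histone genes tested, 47 had a promoter in the RefSeq table (GRCh38.p14). The last 100 bases before the annotated start are given for 1 gene of each histone type, 5′ to 3′ on the strand of the gene. Capitals mark the motifs that were searched on both strands. The first was the TATA box as TATAAA or, on the other strand, TTTATA. The second was the CCAAT box, whose other strand reads ATTGG. The third was the octamer ATTTGCAT, with ATGCAAAT as its other strand. TATAAA can overlap with its own reverse, and the pair then forms 1 run of capitals.
HIST1H1B (H1; chr6:27867589-27867688, minus strand): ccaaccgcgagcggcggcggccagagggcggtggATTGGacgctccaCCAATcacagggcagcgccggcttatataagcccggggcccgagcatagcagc
HIST1H2AG (H2A; chr6:27132943-27133042, plus strand): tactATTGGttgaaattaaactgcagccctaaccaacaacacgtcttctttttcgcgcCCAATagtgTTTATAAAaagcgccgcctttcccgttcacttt
HIST1H2BJ (H2B; chr6:27132796-27132895, minus strand): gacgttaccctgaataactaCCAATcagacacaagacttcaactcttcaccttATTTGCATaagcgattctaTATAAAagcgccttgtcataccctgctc
HIST1H3F (H3; chr6:26250636-26250735, minus strand): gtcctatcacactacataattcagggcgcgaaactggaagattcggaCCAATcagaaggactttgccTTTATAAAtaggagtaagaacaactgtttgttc
HIST1H4D (H4; chr6:26189113-26189212, minus strand): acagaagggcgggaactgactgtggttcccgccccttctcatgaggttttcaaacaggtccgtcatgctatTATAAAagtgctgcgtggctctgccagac

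In the 250 bases upstream, a TATAAA lay in 63.8% of the 47 histone promoters and in 11.1% of all 27305 promoters of the table. CCAAT was found in 89.4% of the histone promoters against 33.0% of all, and ATTTGCAT, which is known as a site of octamer-binding factors, in 40.4% against 1.66%. The octamer was in 76.9% of the 13 H2A and 66.7% of the 12 H2B promoters but in none of the 6 H1 or the 7 H4 promoters. CCAAT was in 28.6% of the H4 promoters and in all those of the other types. The motifs were not confined to this class. Of 7 promoters of replacement histones, 71.4% held CCAAT, 42.9% TATAAA and 14.3% ATTTGCAT. H2A and H2B genes often lie head to head, so their upstream windows can share sequence. These matches describe the windows and are not evidence of a bound factor.

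The 4 libraries held between 37952273 and 45134766 reads on 20626 genes, and 14878 genes passed edgeR's filter on low counts. Levels are given as CPM (reads on a gene relative to the library total, on a fixed scale) with library totals scaled by TMM factors, which ran from 0.956 to 1.06. The log2 ratio is the fitted level in PABP-bound RNA over that in total RNA, with its standard error (SE), from edgeR's quasi-likelihood test. Genes were called at an adjusted p (Benjamini-Hochberg, over all genes tested) under 0.05. Replicates lay closer to each other than the assays did. For the 12926 genes that averaged 1 CPM or more, libraries differed by a median of 0.11 in absolute log2 between the 2 RIPSeq libraries, 0.10 between the 2 RNASeq libraries, and 0.33 to 0.36 between libraries of different assays. The labels do not say that replicates came from separate cultures, so the p-values measure only the spread between these libraries. Of the 11 glial and glioma markers, 9 passed the filter, of which 5 were higher and 0 lower in PABP-bound RNA, with GFAP at 4345 and 4560 CPM and VIM at 5449 and 5924 CPM in total RNA. The call of VIM was lost with the replicate block (0.41) and without replicate 1 of RNASeq (0.35) or of RIPSeq (0.32). ALDH1L1 and SLC1A3, astrocyte markers that did not pass, held at most 13 reads in any of the 4 libraries. Blood, epithelial and liver markers PTPRC, CD3E, EPCAM and ALB were at 6 reads or fewer in every library. Of the 5 markers of other cell types that passed, 2 were called lower in PABP-bound RNA, the neuronal SYT1 at 1.57 CPM or less and MBP of oligodendrocytes at 4.22 CPM or less in every library. The endothelial markers VWF and PECAM1 also passed and were not called. VWF had the most reads of the list, at 9.54 and 7.44 CPM in total RNA and 6.06 and 8.35 CPM in PABP-bound RNA (log2 ratio -0.24). PECAM1 was at 0.767 CPM or less in every library (0.07). Olfactory receptor genes, taken as a measure of stray reads, made up 0.001% to 0.002% of reads, and 7 of 368 passed the filter.

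Across all genes, PABP-bound and total RNA differed widely in both directions. In edgeR, 3636 genes were higher (24.4%) and 3639 lower (24.5%) in PABP-bound RNA, with a median log2 ratio of -0.02 and quartiles at -0.37 and 0.33. With the further condition of a fitted change of at least 2-fold, 532 genes were higher (3.58%) and 733 lower (4.93%). The balance of directions rests on the scaling between the assays. With library totals and no scaling factor the median log2 ratio was -0.15, and 35.3% of the genes called were higher, in place of 50.0%. Ratios near 0 are therefore relative to the other genes. Because nearly as many genes were called in either direction, a class is read against these shares and not against 0.

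**Figure D1:**
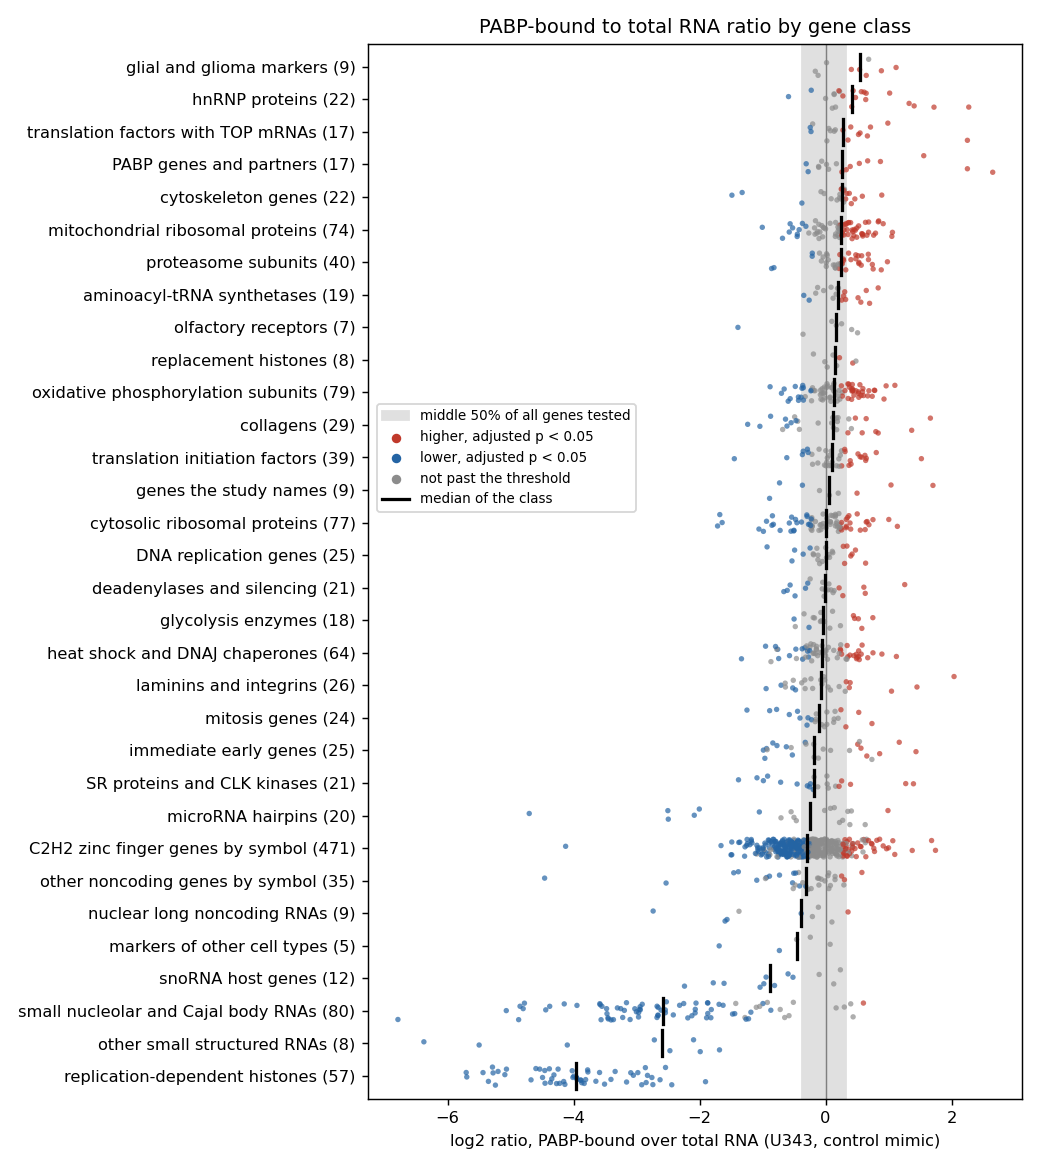
Log2 ratio of PABP-bound over total RNA for every tested gene of each class (1 point per gene, number of tested genes in parentheses, black bar for the median, red and blue for genes called higher and lower by edgeR, grey band for the middle 50% of all genes). Replication-dependent histones (median -3.95), small nucleolar and Cajal body RNAs (-2.58) and other small structured RNAs (-2.59) lie far to the left of the band from -0.37 to 0.33, while most classes of mRNA have their median inside it.

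Replication-dependent histone mRNAs were strongly reduced in PABP-bound RNA. All 57 histone genes tested were lower, each at least 2-fold and in each of the 4 pairs of libraries, against 24.5% of all genes lower and 4.93% lower by at least 2-fold. Their log2 ratios ran from -5.70 to -1.91, with a median of -3.95. Summed over all 65 genes of the class in the table, including the 8 that did not pass the filter, histone reads made up 0.969% and 1.29% of the RNASeq libraries and 0.088% and 0.092% of the RIPSeq libraries. The summed share was therefore lower in both RIPSeq libraries than in either RNASeq library, whatever the filter. Such bulk libraries pool all cells, so whether the ratio differs between cells cannot be seen.

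HIST1H3F, a core histone H3 gene (hg18 chr6:26358349-26358814), had 80.2 and 102 CPM in total RNA and 1.57 and 1.92 CPM in PABP-bound RNA. Its log2 ratio was -5.70 (SE 0.17, edgeR adjusted p = 4.11e-06), the lowest of the class. HIST1H3B, another H3 gene, fell from 362 and 497 CPM to 9.14 and 11.9 CPM, with a log2 ratio of -5.35. In these genes the libraries of the assays were separated by far more than the replicates were. HIST1H1E, which encodes a linker histone and had the most reads of the class, was at 1449 and 2053 CPM in total RNA and at 300.2 and 302 CPM in PABP-bound RNA. Its log2 ratio of -2.54 (SE 0.17, edgeR adjusted p = 9.69e-05) was less extreme than those of the H3 genes. The gene nearest to 0 was HIST3H2A, an H2A gene outside the large clusters, at 13.5 and 17.4 CPM in total RNA and 3.91 and 4.33 CPM in PABP-bound RNA, a log2 ratio of -1.91.

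The types of histone differed in how far they lay from the other genes. The 11 tested H3 genes had a median log2 ratio of -5.24, and the highest of them was at -3.65. The 14 H2A genes had a median of -4.32, the 18 H2B genes -3.91 and the 8 H4 genes -3.52. The 6 linker histone H1 genes were closest to 0, with a median of -2.85 and a range from -3.09 to -2.54, which does not overlap that of the H3 genes. Genes of a type are close copies of each other, so reads may be split between them, and how reads with several matches were counted is not given in the sources used here. The summed share of each type does not depend on that split, and it fell from 0.181% and 0.248% to 0.006% and 0.007% for H3 and from 0.344% and 0.444% to 0.053% and 0.055% for H1.

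Replacement histones, whose mRNAs are polyadenylated, lay near the other genes. Of the 11 genes, 8 were tested, of which 2 were higher, 0 were lower by edgeR, and the median log2 ratio was 0.15. H3F3B, which encodes the variant H3.3, was at 427 and 458 CPM in total RNA and at 484 and 477 CPM in PABP-bound RNA (log2 ratio 0.12, edgeR adjusted p = 0.249). H2AFZ, the H2A.Z gene and the lowest of the class, was at 264 and 310 CPM against 248 and 254 CPM (log2 ratio -0.19, edgeR adjusted p = 0.12). It was called lower with unscaled totals (-0.32) and without replicate 1 of RNASeq (-0.31). The 2 genes that were higher were H2AFY (0.43) and H3F3A (0.22). H2AFX lies outside the histone clusters and gives rise to both tailed and stem-loop messages. It stood between the classes, with 166 and 218 CPM in total RNA, 104 and 126 CPM in PABP-bound RNA and a log2 ratio of -0.73 (SE 0.16, edgeR adjusted p = 0.0122). Without replicate 1 of RIPSeq it was -0.60 and not called (edgeR adjusted p = 0.0632).

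**Figure D2:**
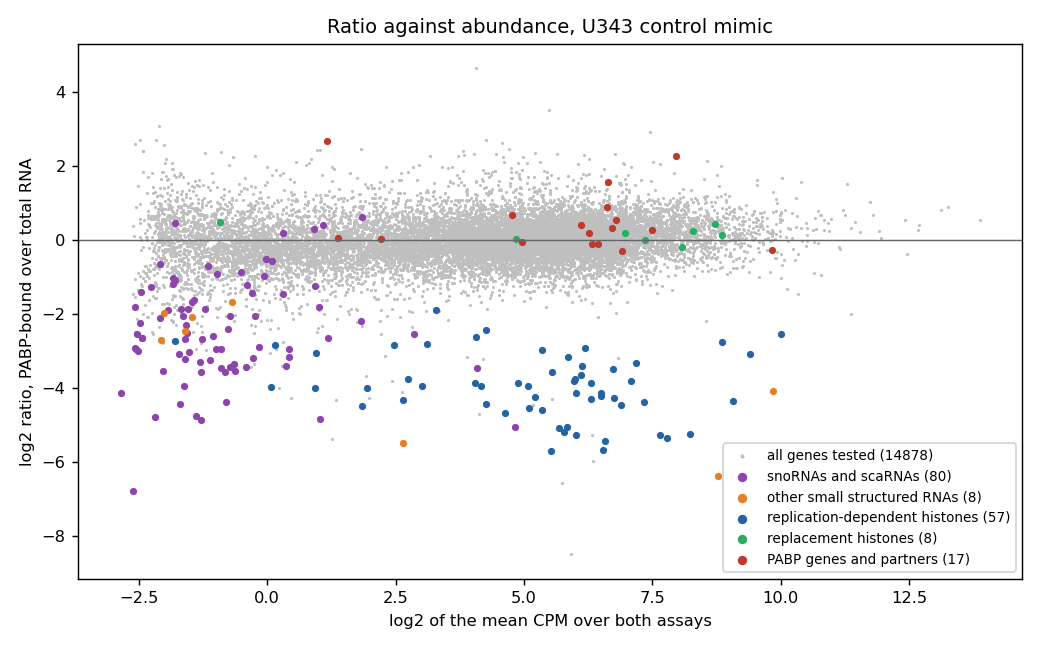
Log2 ratio of PABP-bound over total RNA (vertical) against the log2 of the mean CPM over both assays (horizontal), 1 point per tested gene. Replication-dependent histones (blue) lie below the other genes over the whole range of abundance, whereas replacement histones (green) lie near 0.

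RNA subunits of enzymes and of the minor spliceosome were also low in PABP-bound RNA. All 8 tested genes of the 11 in this class were lower, each at least 2-fold, against 4.93% of all genes. RPPH1, the RNA of RNase P, which matures the 5′ ends of tRNAs, had 722 and 1009 CPM in total RNA and 11.5 and 9.30 CPM in PABP-bound RNA, a log2 ratio of -6.38 (SE 0.23, edgeR adjusted p = 3.05e-05). RMRP, the RNA of RNase MRP, which acts on ribosomal RNA precursors, went from 1453 and 2053 CPM to 105 and 99.9 CPM, a log2 ratio of -4.10. TERC, the template RNA of telomerase, was at 10.9 and 13.6 CPM against 0.208 and 0.333 CPM, a log2 ratio of -5.50. The other 5, RNU11, RNU12, RNU4ATAC and RNU6ATAC of the minor spliceosome and the vault RNA VTRNA1-3, were at 1.20 CPM or less in every library, with log2 ratios from -2.72 to -1.68. The summed share of the 11 genes was 0.231% and 0.318% of reads in RNASeq and 0.011% and 0.010% in RIPSeq. The class median of -2.59 became -4.001 without replicate 1 of RIPSeq and lay between -2.97 and -1.98 without each of the other libraries, with 8 genes tested each time. Where a mean of 50 reads was required, 3 genes were left, with a median of -5.52.

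Small nucleolar RNAs and Cajal body RNAs, which guide the modification of ribosomal and spliceosomal RNAs, were low as well. Over all 351 genes of this class, reads made up 0.018% and 0.022% of the RNASeq libraries and 0.004% and 0.003% of the RIPSeq libraries. Of these genes 80 passed the filter, which reads in 1 assay alone can satisfy, and 66 of the 80 were lower and 1 higher by edgeR, with a median log2 ratio of -2.58. SCARNA2, the Cajal body RNA with the most reads, had 51.1 and 58.8 CPM in total RNA and 1.36 and 1.92 CPM in PABP-bound RNA, a log2 ratio of -5.07 (SE 0.16, edgeR adjusted p = 2.72e-06). The Cajal body RNAs had a median of -3.08 over 12 genes, the H/ACA RNAs (SNORA) -2.61 over 45 and the C/D RNAs (SNORD) -1.87 over 23. The single gene that was higher, SNORD58B at 2.96 and 2.79 CPM against 5.11 and 3.59 CPM (0.60, edgeR adjusted p = 0.0354), lies inside RPL17 on the same strand. It was not called with DESeq2, with unscaled totals, or without replicate 1 or 2 of RNASeq or replicate 1 of RIPSeq, where its ratio was between 0.32 and 0.64. Most of these RNAs lie in introns of other genes, and 17.7% of all genes tested overlap another gene of the table, so their reads cannot be fully assigned.

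The noncoding hosts of snoRNAs were lower to a lesser degree. Of 12 host genes listed, 9 were lower and 0 higher by edgeR, with a median log2 ratio of -0.88. The list is not the same as all tested genes with an SNHG symbol, of which 9 were lower and 1 higher. SNHG9 had 5.53 and 5.55 CPM in total RNA and 0.995 and 1.36 CPM in PABP-bound RNA, a log2 ratio of -2.24 (edgeR adjusted p = 6.25e-05). SNHG6, with the most reads, was at 43.2 and 40.1 CPM against 28.7 and 26.4 CPM, a log2 ratio of -0.59. SNHG11, the highest, was at 7.65 and 9.05 CPM against 9.16 and 10.5 CPM and was not called (edgeR adjusted p = 0.177).

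Nuclear long noncoding RNAs did not move as 1 class. Of the 9 tested, 4 were lower and 1 higher, with a median log2 ratio of -0.39. MALAT1, an abundant RNA of nuclear speckles, had 788 and 819 CPM in total RNA and 119 and 122 CPM in PABP-bound RNA, a log2 ratio of -2.74 (SE 0.08, edgeR adjusted p = 1.75e-06). KCNQ1OT1, an RNA that coats an imprinted domain, was at 53.3 and 51.2 CPM against 18.6 and 16.8 CPM, a log2 ratio of -1.56. NEAT1, the scaffold of paraspeckles, showed no such loss, with 33.1 and 33.1 CPM against 31.9 and 29.3 CPM and a log2 ratio of -0.11 (SE 0.08, edgeR adjusted p = 0.292), though with unscaled totals it was called at -0.24 (edgeR adjusted p = 0.0499). The table lists NEAT1 with a span of 3733 bases, so reads from most of its long form, which lacks a poly(A) tail, are not in this count. HOTAIR was the gene called higher, at 9.56 and 9.15 CPM against 13.1 and 10.9 CPM (log2 ratio 0.36, edgeR adjusted p = 0.0406). It lost the call with DESeq2, both other edgeR scalings and without replicate 1 or 2 of RNASeq or replicate 1 of RIPSeq, with ratios from 0.22 to 0.39. Of 35 tested genes with a noncoding placeholder symbol, 13 were lower and 3 higher, with a median of -0.31. NCRNA00164 was the lowest, at 63.9 and 73.6 CPM against 2.78 and 3.48 CPM (-4.46). By the gene types of RefSeq, 6.47% of the 278 long noncoding genes tested were higher and 26.3% lower, against 25.6% and 24.2% of the 13665 protein-coding genes.

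The microRNA genes are shown with the mature sequences they give rise to, because they name the RNAs of a class with 6 members lower, 1 higher and 13 not called. Capitals mark the seed, bases 2 to 8, and sequences are from RefSeq (GRCh38.p14). The libraries measured longer RNA across the hairpin, not the mature miRNA. MIR663 and MIR198 were the lowest and the highest of the class, and the others were chosen after their values were seen, as hairpin genes that were called lower and had an entry. No 2 of the seeds shown are the same.
hsa-miR-663a (MIR663): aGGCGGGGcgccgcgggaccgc
hsa-miR-27b-3p (MIR27B): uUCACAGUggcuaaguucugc
hsa-let-7i-5p (MIRLET7I): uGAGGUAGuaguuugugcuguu
hsa-miR-564 (MIR564): aGGCACGGugucagcaggc
hsa-miR-198 (MIR198): gGUCCAGAggggagauagguuc

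Of the 467 genes in this class only 20 passed the filter, of which 6 were lower and 1 higher by edgeR. These were 30.0% and 5.0%, beside 24.5% and 24.4% of all genes, so the share of lower genes was near that of all genes. The class median log2 ratio was -0.24. It became -1.40 with a filter of 1 read in any library, where 192 genes were tested, and 0.02 without replicate 2 of RNASeq. MIR663 had 31.9 and 35.5 CPM in total RNA and 1.27 and 1.31 CPM in PABP-bound RNA, a log2 ratio of -4.70 (SE 0.13, edgeR adjusted p = 1.54e-06). MIR27B, MIRLET7I and MIR564 were at 1.71 CPM or less in every library, with log2 ratios between -2.50 and -1.05. MIR198 was at 26.5 and 22.9 CPM against 45.4 and 52.9 CPM, a log2 ratio of 0.99 (SE 0.11, edgeR adjusted p = 0.000188). Its hairpin lies inside FSTL1 on the same strand, so these reads may belong to that mRNA. MIR17HG, the host transcript of the miR-17 cluster, was at 10.2 and 9.12 CPM against 2.31 and 2.25 CPM, a log2 ratio of -2.08.

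A few genes with protein-coding names stood among the 10 lowest. NRSN1, which encodes a neuronal membrane protein, had 96.7 and 145 CPM in total RNA and 0.370 and 0.282 CPM in PABP-bound RNA, a log2 ratio of -8.51 (SE 0.35, edgeR adjusted p = 8.06e-05). MUC17, a membrane mucin, had 87.0 and 126 CPM against 1.20 and 0.999 CPM, a log2 ratio of -6.59. FGF23, a hormone of phosphate balance, was at 4.88 and 4.47 CPM against 0.139 and 0.077 CPM, a log2 ratio of -5.38. C15orf51 was at 128 and 192 CPM against 2.73 and 2.31 CPM, a log2 ratio of -5.99. None of these 4 overlaps another gene of the table, and whether their reads come from an unlisted RNA was not tested. With RPPH1, TERC and 4 histone H3 genes (HIST1H3F, HIST1H3H, HIST1H3G and HIST1H3B), they make up the 10 lowest.

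mRNAs of the poly(A) binding proteins themselves were among the most enriched. PABPC1, the main cytoplasmic PABP, had 83.0 and 89.9 CPM in total RNA and 429 and 395 CPM in PABP-bound RNA, a log2 ratio of 2.25 (SE 0.09, edgeR adjusted p = 3.98e-06). PABPC4, the inducible PABP, was at 49.1 and 51.1 CPM against 149 and 147 CPM, a log2 ratio of 1.56 (SE 0.07, edgeR adjusted p = 5.43e-06). The RNAs of both proteins named in the antibody mix were thus higher in both RIPSeq libraries than in either RNASeq library. PABPN1, the nuclear PABP, was at 70.8 and 67.6 CPM against 125 and 128 CPM, a log2 ratio of 0.87. PABPC3 is an intronless near-copy of PABPC1, and its 0.566 and 0.665 CPM against 4.19 and 3.54 CPM (log2 ratio 2.65) may hold reads of PABPC1.

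Among the genes of PABPs and their partners, 9 of 17 tested were higher and 2 lower, with a median log2 ratio of 0.26, against 24.4% of all genes higher. Of the 17, 10 lay in the top of 5 equal bins by mean CPM over both assays. In that top abundance bin 6 of the 10 were higher and 2 lower, beside 40.9% and 22.5% of all genes. Besides the PABP genes, the higher members were PAIP1 and PAIP2, which bind PABP and promote or inhibit translation, EIF4G3, LARP1 and TOB1, with log2 ratios from 0.26 to 0.67. EIF4G1, the main eIF4G, was lower, at 958 and 1032 CPM against 804 and 839 CPM (log2 ratio -0.28, edgeR adjusted p = 0.0272). LARP4, a poly(A)-associated protein, was lower by a like amount (-0.31). Both calls were lost without replicate 2 of RNASeq or of RIPSeq, and further without replicate 1 of RIPSeq for EIF4G1 and replicate 1 of RNASeq for LARP4, at ratios between -0.32 and -0.21. Deadenylases and proteins of miRNA silencing, which act against the tail, showed no common direction, with 5 of 21 higher, 6 lower and a median of -0.00 that was above 0 with DESeq2's size factors. CNOT3, a subunit of the CCR4-NOT deadenylase, was the highest of them at 20.0 and 24.9 CPM against 52.0 and 55.1 CPM (1.26), and PAN3, of the PAN2-PAN3 deadenylase, the lowest at 34.3 and 30.8 CPM against 21.8 and 19.4 CPM (-0.66).

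**Figure D3:**
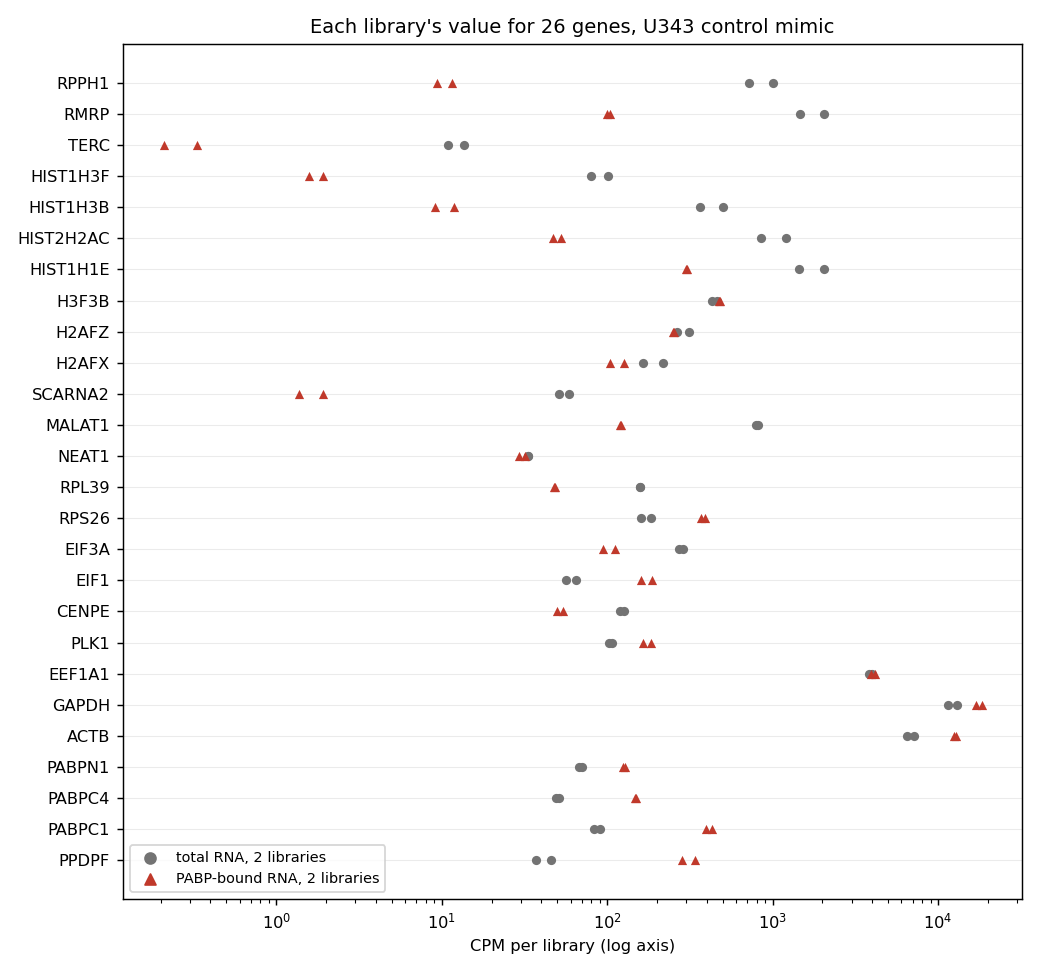
CPM of 26 genes in each of the 4 libraries (log axis; grey circles for the 2 total RNA libraries, red triangles for the 2 PABP-bound libraries). For the histone H3 genes, RPPH1, TERC and SCARNA2 the triangles lie more than 10-fold to the left of the circles, for H3F3B, NEAT1 and EEF1A1 they lie close together, and for PABPC1 and PPDPF they lie to the right.

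Genes of the translation machinery were divided. The 77 cytosolic ribosomal protein genes, whose mRNAs begin with a terminal oligopyrimidine (TOP) tract, had 19 higher and 24 lower members. These were 24.7% and 31.2%, beside 24.4% and 24.5% of all genes. The top abundance bin held 76 of them. There 25.0% of the class were higher and 30.3% lower, beside 40.9% and 22.5% of all genes. The class median log2 ratio was 0.01, and it was below 0 with upper-quartile scaling and with unscaled totals. RPL39 was lowest, at 159 and 157 CPM in total RNA and 47.7 and 48.5 CPM in PABP-bound RNA, a log2 ratio of -1.71 (SE 0.07, edgeR adjusted p = 4.28e-06). RPS26 was highest, at 161 and 183 CPM against 390 and 368 CPM, a log2 ratio of 1.14. Many ribosomal protein genes have processed copies elsewhere in the genome, so single values are uncertain. The summed share of the class was 3.92% and 4.25% of reads in RNASeq and 3.98% and 3.88% in RIPSeq. These ranges overlap.

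The 17 other genes with TOP mRNAs had 9 higher and 2 lower members and a median of 0.28, with PABPC1 as the highest. All 17 lay in the top abundance bin, and 52.9% were higher, beside 40.9% of all genes there. EEF1A1, the most abundant elongation factor, was at 3826 and 3967 CPM against 4154 and 3921 CPM (log2 ratio 0.05, edgeR adjusted p = 0.677). Initiation factors had 14 higher and 6 lower of 39, with a median of 0.11 that became -0.02 with unscaled totals. These were 35.9% and 15.4%, beside 24.4% and 24.5% of all genes. The top abundance bin held 23 of the 39. There 43.5% were higher, near the 40.9% of all genes, and 17.4% lower, beside 22.5%. EIF1, which guides start codon choice, was the highest at 56.7 and 64.3 CPM against 187 and 161 CPM (1.52, edgeR adjusted p = 2.37e-05). EIF3A, the largest subunit of eIF3, was the lowest at 273 and 288 CPM against 111 and 94.6 CPM (-1.45, edgeR adjusted p = 1.95e-05).

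Several classes of housekeeping mRNA had more higher than lower members, and the share of calls also varied with abundance. In the top of 5 equal bins by mean CPM over both assays, from 80.0 CPM upwards, 40.9% of all genes were higher and 22.5% lower, and in the lowest bin 5.78% were higher and 15.9% lower. Mitochondrial ribosomal proteins had 37 of 74 higher and 10 lower (median 0.24), proteasome subunits 22 of 40 higher and 4 lower (0.24), oxidative phosphorylation subunits 32 of 79 higher and 15 lower (0.13) and aminoacyl-tRNA synthetases 9 of 19 higher and 2 lower (0.20), beside 24.4% higher and 24.5% lower over all genes. The differences were small, and few of these genes changed by at least 2-fold, none of the proteasome subunits among them. MRPL32 was the highest mitochondrial ribosomal protein, at 35.2 and 37.4 CPM against 80.4 and 71.0 CPM (1.06), and MRPL33 the lowest, at 69.1 and 76.3 CPM against 40.7 and 31.7 CPM. Among proteasome genes, the activator subunit PSME3 was at 52.7 and 53.4 CPM against 109 and 100.2 CPM (0.98), and the core subunit PSMA7 at 338 and 381 CPM against 189 and 208 CPM (-0.86). Of the respiratory chain, SDHC was highest (1.10) and UQCRQ lowest (-0.88). Within the top abundance bin, 16 of 21 mitochondrial ribosomal proteins, 16 of 30 proteasome subunits, 25 of 60 oxidative phosphorylation subunits and 8 of 17 synthetases were higher. For oxidative phosphorylation subunits these were 41.7%, near the 40.9% of all genes in that bin. With unscaled totals the medians of these 4 classes ran from 0.00 to 0.12.

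Among RNA-binding proteins of splicing, of 22 hnRNP genes, 14 were higher and 2 lower. These were 63.6% and 9.09%, beside 24.4% and 24.5% of all genes. The top abundance bin held 14 of the 22, and there 71.4% were higher and 7.14% lower, beside 40.9% and 22.5% of all genes. The median log2 ratio was 0.43 and kept between 0.30 and 0.45 over the alternatives compared for class medians. HNRNPD, which binds AU-rich elements, was at 39.6 and 44.5 CPM in total RNA and 144 and 134 CPM in PABP-bound RNA, a log2 ratio of 1.72 (edgeR adjusted p = 6.68e-06). HNRNPA2B1 was at 209 and 206 CPM against 450 and 390 CPM, a log2 ratio of 1.02. HNRNPD and HNRNPA2B1 were picked after their values were seen. HNRNPU, a scaffold protein with the most reads of the family, was lower, at 793 and 822 CPM against 549 and 526 CPM (-0.59, edgeR adjusted p = 0.000547). HNRNPA3P1, a pseudogene of HNRNPA3, held the highest ratio (2.27) at 1.69 CPM or less in every library, and its reads may come from the parent gene.

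Of the 21 SR proteins and the CLK kinases that phosphorylate them, 10 were lower, 5 were higher and 6 were not called, with a median of -0.18. CLK1, a kinase whose transcript is known to retain introns in the nucleus, was lowest at 36.1 and 33.9 CPM against 13.6 and 13.2 CPM (-1.38, edgeR adjusted p = 1.85e-05). TRA2A, a splicing activator, was the highest at 16.9 and 16.7 CPM against 45.2 and 43.2 CPM (1.40, edgeR adjusted p = 1.23e-05). SFRS2, with the most reads, was at 410 and 451 CPM against 296 and 334 CPM (-0.45). The difference between the families was not tested.

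C2H2 zinc finger genes, mostly transcriptional repressors, were the largest class examined. Of 471 tested, 202 were lower and 42 higher by edgeR, beside 24.5% and 24.4% of all genes. The median log2 ratio was -0.30, with a range from -0.42 to -0.27 over the alternatives compared for class medians. Their median level was 10.8 CPM, within the second abundance bin, where 16.2% of all genes were higher and 25.2% lower. In all, 24 were lower by at least 2-fold, so most of the differences were small. ZNF485 was the lowest, at 10.2 and 13.3 CPM in total RNA and 0.648 and 0.692 CPM in PABP-bound RNA, a log2 ratio of -4.13. ZNF385A was the highest, at 0.901 and 1.02 CPM against 3.26 and 3.18 CPM, a log2 ratio of 1.75. ZNF207, with the most reads, was higher, at 298 and 310 CPM against 445 and 446 CPM (0.55). Immediate early genes, with short-lived mRNAs, had 8 lower and 6 higher of 25 and a median of -0.18. FOSL1 was their highest, at 14.5 and 18.1 CPM against 46.3 and 42.0 CPM (1.44), and DUSP1 their lowest, at 20.3 and 22.0 CPM against 11.6 and 9.76 CPM (-0.99).

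Secreted, cytoskeletal and metabolic genes held single large ratios without a shared one. LAMA5, a laminin chain, was at 76.6 and 80.7 CPM in total RNA and 288 and 359 CPM in PABP-bound RNA, a log2 ratio of 2.04 (SE 0.11, edgeR adjusted p = 1.42e-05). ITGAV, an integrin of the same class, was at 344 and 303 CPM against 185 and 152 CPM, a log2 ratio of -0.94. Over laminins and integrins 6 of 26 were higher and 4 lower, and over collagens 8 of 29 were higher and 7 lower. COL6A1, the collagen with the most reads, was at 6242 and 6822 CPM against 12068 and 10649 CPM (0.80). ACTB was the highest of 22 cytoskeleton genes, 9 of which were higher and 3 lower, at 6473 and 7159 CPM against 12866 and 12439 CPM (0.89, edgeR adjusted p = 0.000277). The lowest was TPM2 (-1.49). Of the 22 cytoskeleton genes, 21 lay in the top abundance bin. There 42.9% of them were higher, near the 40.9% of all genes. GAPDH rose by less, from 11537 and 13091 CPM to 17045 and 18295 CPM (0.52, and 0.47 with no call without replicate 2 of RIPSeq), while 5 of 18 glycolysis genes were higher, 2 lower and the class median was -0.04.

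Genes of the cell cycle moved in both directions. CENPE, a kinetochore motor, was at 120 and 126 CPM against 54.1 and 49.4 CPM (-1.25), and CENPF at 1108 and 1189 CPM against 653 and 589 CPM (-0.89, edgeR adjusted p = 0.000139). PLK1, a mitotic kinase, was higher, at 102 and 107 CPM against 163 and 185 CPM (0.74). Over 24 mitosis genes 9 were lower and 4 higher, with a median of -0.10, and over 25 DNA replication genes 7 were higher and 5 lower, with a median of 0.00 that was negative with both other edgeR scalings. Heat shock and DNAJ chaperones had 19 higher and 13 lower of 64, from HSPB1 at 1.12 to DNAJB3 at -1.33. DNAJB3 held 0.608 CPM or less in each of the 4 libraries, and it was not called with DESeq2 or without replicate 1 of RNASeq, replicate 1 of RIPSeq or replicate 2 of RIPSeq (-1.50 to -1.19).

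Of the 11 genes that the study singled out as affected by miR-137, 9 could be tested. Without miR-137, 3 were higher and 3 lower in PABP-bound RNA. These were 33.3% each way, beside 24.4% higher and 24.5% lower over all genes. The top abundance bin held 6 of the 9, and there 16.7% were higher and 33.3% lower, beside 40.9% and 22.5% of all genes. The counts therefore do not set these genes apart. MSI1, a neural RNA-binding protein, was at 17.0 and 14.8 CPM in total RNA and 46.8 and 56.9 CPM in PABP-bound RNA, a log2 ratio of 1.71 (SE 0.12, edgeR adjusted p = 3.06e-05). CDC42, a small GTPase, was at 109 and 99.9 CPM against 147 and 148 CPM (0.50). The surface protein gene CD24 was called higher as well (1.04), but it is uncertain because the annotation overlaps it with TTTY14 on the same strand. MIB1, a ligase of the Notch pathway, was at 90.6 and 77.6 CPM against 45.4 and 45.5 CPM (-0.89), and CDK6, a cell cycle kinase, at 527 and 623 CPM against 369 and 324 CPM (-0.73, edgeR adjusted p = 0.000821). MTDH was lower as well (-0.37). AKT2, TGFB2 and YBX1 were not called, with log2 ratios of 0.20, -0.10 and 0.06, although AKT2 was called at 0.30 without replicate 1 of RIPSeq. KIT and NEFL were at 0.139 CPM or less in every library and were not tested.

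The 10 highest genes that met the rule for naming were led by LDLRAD2, at 1.36 and 1.23 CPM against 27.8 and 36.8 CPM, a log2 ratio of 4.63 (SE 0.18, edgeR adjusted p = 4.79e-06). LDLRAD2 overlaps the 3′ side of HSPG2, the perlecan gene, on the other strand, and HSPG2 came next at 8.07 and 6.42 CPM against 70.6 and 93.9 CPM (3.50). Since the use of strand in counting is not stated, their reads cannot be told apart. PPDPF, which overlaps no other gene of the table, was at 37.1 and 45.6 CPM against 284 and 337 CPM, a log2 ratio of 2.91 (SE 0.13, edgeR adjusted p = 1.29e-05). The others were ATN1 (2.69), PABPC3 (2.65), the phosphatase PTPN23 (2.61), the natriuretic peptide receptor NPR2 (2.46), the proteoglycan BGN (2.46), the Nogo receptor homologue RTN4RL2 (2.42) and TMEM59L (2.41). All 10 were higher in each of the 4 pairs of libraries.

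A further survey grouped the tested genes by symbol alone. At its low end the groups hold largely the same genes as the classes above, so it gives no separate support for them. Among 188 groups of at least 10 tested genes whose symbols share their leading letters, the lowest medians belonged to HIST (-3.95), SCARNA (-3.08), SNORA (-2.61), SNORD (-1.87) and SNHG (-0.88). The highest belonged to PCDHGA, the gamma protocadherins, with a median of 1.52 and all 12 members higher, followed by FKBP (0.41), ANXA (0.40), ABHD (0.38) and TM (0.34). The PCDHGA genes share their last exons, so their 12 values rest in part on the same reads. Of the FKBP genes, which encode prolyl isomerases, 11 of 16 were higher and 2 lower.

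Over all genes the Spearman correlation of mean CPM with the log2 ratio was 0.18, and the median log2 ratio went from -0.19 in the lowest to 0.14 in the top of the 5 abundance bins. Calls also varied with the genomic span of the gene in the hg18 table. In the bin of the longest genes, with a median span of 149160 bases, 16.9% were higher and 32.9% lower. In the second of the 5 bins, with a median of 12348 bases, 31.1% were higher and 17.7% lower. The shortest bin, with a median of 3879.5 bases, had 24.0% higher and 25.7% lower, and it holds 319 of the genes lower by at least 2-fold. Over all genes the Spearman correlation of span with the log2 ratio was -0.07, as a description across genes of the same 4 libraries. The corresponding check of promoter GC content is not reported here. Only 76.3% of the genes tested had a promoter in the table, which fell short of the share set for such a check.

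**Figure D4:**
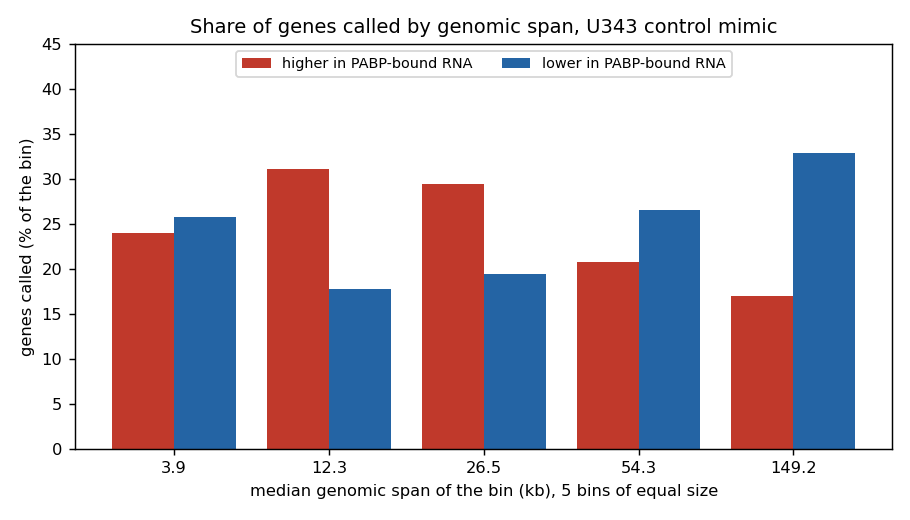
Percent of genes called higher (red) and lower (blue) in PABP-bound RNA by edgeR, in 5 equal-sized bins of genomic span (horizontal axis, median span of each bin in kb). The share called higher falls from 31.1% in the second bin to 16.9% in the bin of the longest genes, where 32.9% were lower.

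The PABP-bound to total ratio was then set beside that of the 4 U343 libraries with the miR-137 mimic, which share no library with the control. Over 14646 genes tested in both, Pearson's r of the log2 ratios was 0.79, as a description across genes. In a fit of all 8 libraries with an interaction of assay and transfection, 2 of 15413 genes differed by edgeR (0.013%), while 2718 had an unadjusted p under 0.05 and DESeq2 called 399. Both genes were histones of the chromosome 1 cluster. HIST2H2BE, at 213 and 294 CPM in total RNA and 19.0 and 17.2 CPM in PABP-bound RNA, had a log2 ratio of -3.81 with the control mimic and of -0.86 with miR-137, a difference of -2.93 (edgeR adjusted p = 0.0181). HIST2H2AC had log2 ratios of -4.37 and -1.60, a difference of -2.75 (edgeR adjusted p = 0.0329). Neither was called when either RIPSeq control library was left out. Without replicate 1 of the miR-137 RNASeq libraries 78 genes differed, and without replicate 2 of them 3278 did. The histone class as a whole had a median of -3.95 with the control mimic and -3.91 with miR-137. Among classes with medians nearer to 0, hnRNP genes were alike, at 0.43 and 0.46, but others were not. Oxidative phosphorylation subunits were at 0.13 with the control mimic and -0.22 with miR-137. C2H2 zinc finger genes were at -0.30 and 0.02, and cytosolic ribosomal proteins at 0.01 and -0.28. These differences between class medians were not tested.

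Against the U251 control libraries, whose cDNA was made with random hexamers and EpiScript reverse transcriptase in place of the TotalScript kit, the ratio differed at more genes. Pearson's r of the log2 ratios was 0.57 over 12535 genes. In a fit with an interaction of assay and cell line, 456 of 15649 genes differed by edgeR (2.91%), of which 105 had a higher and 351 a lower ratio in U343. Cell line and library preparation cannot be told apart in this comparison. The histone class had a median of -5.12 over 55 genes in U251, and the linker histone HIST1H1B went from -5.78 there to -3.09 in U343, a difference of 2.62 (edgeR adjusted p = 0.0196). SLC7A5, an amino acid transporter, was higher in PABP-bound RNA in both lines, at 2446 and 3046 CPM against 4398 and 4298 CPM in U343 (0.66) and with a log2 ratio of 3.76 in U251, a difference of -3.16. CCL2, a chemokine, was at 176 and 144 CPM against 148 and 139 CPM in U343 (-0.16) and had a log2 ratio of 3.10 in U251. MUC17 was low in PABP-bound RNA in U343 (-6.59) and high in U251 (5.57), a difference of -12.3. MALAT1 was at -3.36 in U251 and -2.74 in U343, a difference that did not pass the threshold (0.56, edgeR adjusted p = 0.241). None of the 456 calls remained when any 1 of the 4 U343 libraries was left out, whereas 4611 and 10037 genes were called without replicate 1 or 2 of the U251 RIPSeq controls.

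**Figure D5:**
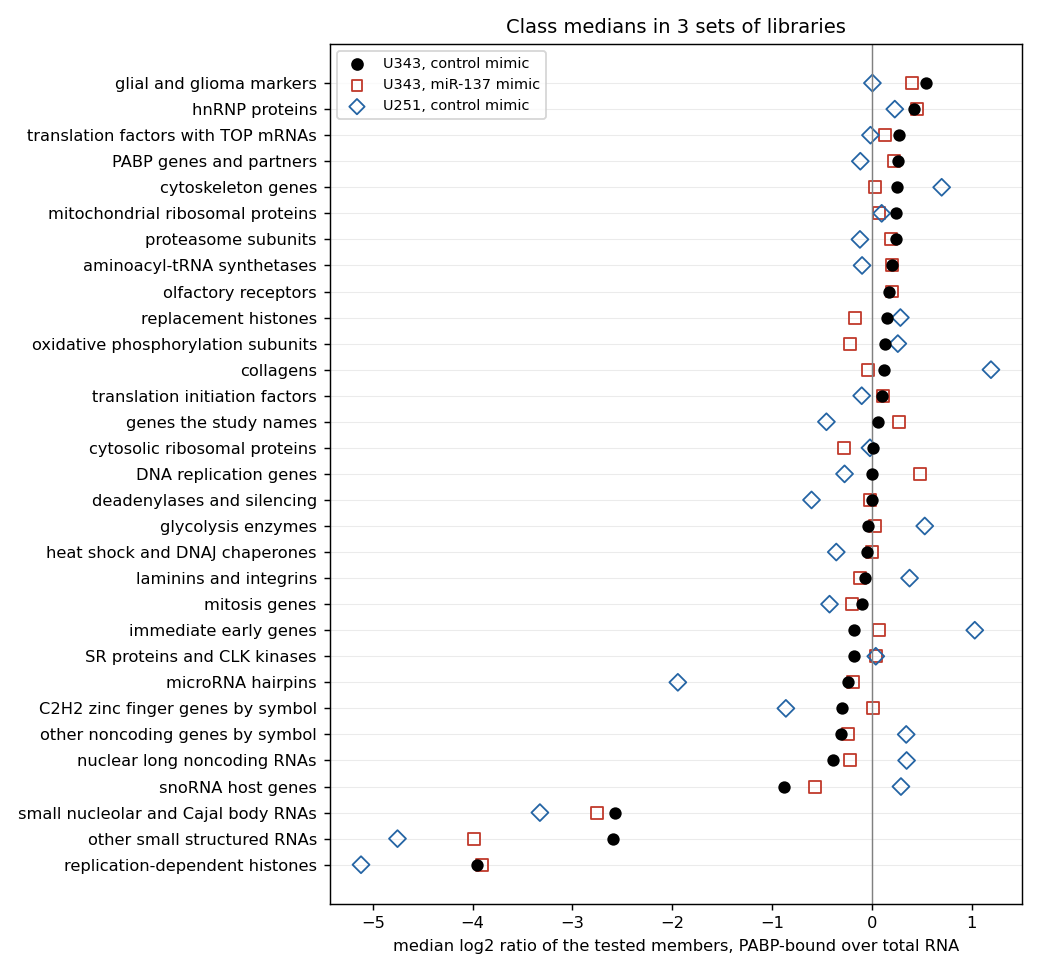
Median log2 ratio of PABP-bound over total RNA in each class for U343 with the control mimic (black circles), U343 with miR-137 (red squares) and U251 with the control mimic (blue diamonds). Replication-dependent histones lie at -3.95, -3.91 and -5.12, and the snoRNA host genes at -0.88, -0.57 and 0.29.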

How the data were processed

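Read counts on genes were taken from U343 libraries of the control transfection, 2 RIPSeq and 2 RNASeq; the U343 miR-137 and U251 control libraries entered only the tests of difference. The deposited values are raw counts, which the authors obtained with RMAP on hg18 after merging the RefSeq isoforms of a gene. Counts were analysed in edgeR 4.0.16 (R 4.3.3) with filterByExpr, TMM factors and the robust quasi-likelihood F test, and p-values were adjusted by the Benjamini-Hochberg method over all genes tested. Alternatives were DESeq2 1.42.0, other scalings, filters and samples in the fit, a replicate block, each library left out, and the study's Fisher's exact rule. The scripts were tested on simulated data. Same-numbered libraries did not deviate together (correlation -0.26 over 12926 genes), and the labels tie them by number only. Members and lists were chosen with earlier results of these data known. Named genes were the 10 highest and lowest past the threshold with at least 50 reads in the higher assay and 1 direction in all 4 pairs, the extremes and the most-read gene of each list, fixed genes including those the study named, and the 5 smallest interaction p-values in each direction. Reads amplified by PCR carry no molecular identifiers, so counts are not independent molecules. Gene names and types came from RefSeq (GRCh38.p14), which matched 14384 of the 14878 genes tested, and its coordinates were used only for printed sequences.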

Additional observations from a re-analysis of the deposited data

Results flagged for a closer look

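The ratio of PABP-bound to total RNA differed between the control and miR-137 transfections of U343 at 2 genes by the interaction test, with DESeq2 at 399. HIST2H2BE differed by -2.93 and HIST2H2AC by -2.75 on the log2 scale (control minus miR-137). The other histone genes with small interaction p-values, HIST3H2A, HIST1H3E and HIST1H2BK, had differences of -2.10, -2.67 and -2.61 and did not pass the threshold (edgeR adjusted p from 0.0815 to 0.176).

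Between the U343 and U251 controls, 456 genes differed in this ratio. Differences are given as U343 minus U251, as log2 values. The largest by size among the 5 smallest p-values in each direction was that of MUC17 (-12.3), followed by C22orf27 (-3.77), CCL2 (-3.32), SLC7A5 (-3.16) and TINAGL1 (-3.11). In the other direction BDNFOS differed by 3.35, AFARP1 by 2.88, HIST1H1B by 2.62, PCLO by 2.51 and C21orf34 by 2.27. BDNFOS, AFARP1 and C22orf27 overlap BDNF, SLC16A1 and MORC2 on the other strand, and C21orf34 hosts MIR99A, MIRLET7C and MIR125B2 on its own strand, so reads may be shared.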

How the results depend on the processing

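With 2 libraries per group, the calls rest on a spread estimated from few libraries, and low genes have the larger errors (an SE of 0.37 for RNU11, of 0.08 for MALAT1). Of 1360 values of the 137 named genes under the alternatives, 1295 kept their side of the threshold, 57 lost the call and 8 gained one. In 0 cases did the direction reverse with a call in either fit. Changes of sign in genes called in neither fit were counted as kept. Examples were YBX1, from -0.06 to 0.12, and EEF1A1, from -0.07 to 0.09. Neither the named genes nor the class medians were compared with the fit of all 8 U343 libraries or the Fisher rule. Of 320 class medians, 250 moved by less than the spread over pairs of libraries and 70 by more. The sign of a median changed 25 times, in classes with a median near 0 and in the microRNA hairpins, which stood at 0.02 without replicate 2 of the RNASeq controls, where other low genes entered the test.

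Genes lower in PABP-bound RNA numbered 2421 with all 8 U343 libraries in 1 fit, against 3639, and genes at least 2-fold higher numbered 229 by the study's Fisher rule, against 532; the cause was not tested. Leaving out each library in turn gave 2646 to 3131 higher and 2517 to 2926 lower genes. With a replicate block 3387 genes were higher and 3332 lower, and 83 differed between the cell lines in place of 456. That block left the 2 calls by transfection. A crossed replicate pairing, added after seeing the data because the correlation was negative, gave 4014 higher and 4033 lower. The difference by cell line counted 2297 genes with DESeq2, 196 with upper-quartile scaling, and 0 to 10037 without single libraries. The difference by transfection counted 399 with DESeq2 and 0 to 3278 without single libraries. The omissions of miR-137 and U251 libraries were chosen after seeing the data. A lone library was assumed to vary like the other groups.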
